A study of Capra hircus with 4 samples.

Results

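Ubiquitin-specific proteases (USP) were examined in Longissimus dorsi muscle of goats given ractopamine. They were the goat genes whose symbol in the authors' pairing of unigenes with goat proteins is USP followed by a number. A unigene is a transcript sequence assembled from the reads, and counts of all unigenes paired with a gene were summed. In all, 41 of the 11208 named goat genes were members, and they held 89 unigenes. The family was taken up because USP13 was among the lowest genes in every treated library, so the members were chosen by measured ratios of 1 of them, and the USP13 ratios are given as a description and no test is made on them.

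The muscle came from Cashmere goats labelled as 2 months old. There was 1 control library and there were 3 libraries of treated goats, here called T1, T2 and T3 after the numbers in their labels. Ractopamine, a beta-adrenergic agonist, was given by mouth each morning at 1 mg/kg body weight over 28 dosing days, and 21 withdrawal days followed. The labels give neither the time point of a library nor whether it holds RNA of 1 animal, and the series calls the treated libraries replicates, so the spread between them may be technical or may hold different times.

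Ubiquitin is a small protein that is attached to other proteins and marks many of them for the proteasome. The USP family is the largest family of deubiquitinases, the enzymes that take ubiquitin off again. Its members share a catalytic domain whose active cysteine lies in a short stretch called the Cys box, and they differ in the domains around it. In skeletal muscle the ubiquitin system is known for protein breakdown during atrophy, with the ligases TRIM63 (MuRF1) and FBXO32 (atrogin-1) at its centre.

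The Cys box was found in the open reading frames of 25 members and of 27 goat genes in all (0.241%). The non-members were ABHD14A and LOC102180290. The windows of 60 bases below are from the authors' assembled unigenes, with the codon of the active cysteine in capitals. USP13 and its close relative USP5 are shown with the related pair USP25 and USP28, whose levels parted in T1, and with USP16, a zinc finger member that was not below control in either deep treated library.
USP13: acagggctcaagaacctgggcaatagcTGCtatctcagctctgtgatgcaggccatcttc
USP5: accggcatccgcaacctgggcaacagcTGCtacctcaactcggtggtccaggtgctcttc
USP25: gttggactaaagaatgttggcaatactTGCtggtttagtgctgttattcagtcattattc
USP28: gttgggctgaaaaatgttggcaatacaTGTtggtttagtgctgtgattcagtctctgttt
USP16: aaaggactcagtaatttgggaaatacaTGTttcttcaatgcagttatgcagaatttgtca

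In this window USP5 had the same base as USP13 at 45 of 60 positions, USP25 at 38, USP28 at 37 and USP16 at 35. Over the whole open reading frames, 2589 bases in USP13 and 2574 bases in USP5, 68.3% of 2498 aligned bases were identical. The longest identical run was 20 bases.

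Levels are counts per 1000000 counts of named goat genes (cpm). In muscle taken as a whole, fewer cells of a type and less RNA per cell cannot be told apart. These counts were 6086312 in control, 3991046 in T1, 133809 in T2 and 2697657 in T3. In T2, mitochondrially encoded proteins without a gene name took 97.9% of the goat-paired counts, against 23.8% in control. The whole family had 83 counts there, and 14 members had 0. A ratio below 0.6 could be called in that library only for genes above 37.4 cpm in control, which applied to 16 members. That library also differed in markers of other cells: the adipocyte markers ADIPOQ and PLIN1 summed to 777 cpm against 13.3 cpm in control, and the fibroblast markers COL1A1 and DCN to 1928 cpm against 61.8 cpm. In T1 and T3 the adipocyte sum was 102 and 25.2 cpm and the fibroblast sum 60.6 and 96.4 cpm. The part of these markers in the USP results was not tested. Of 9 muscle markers 6 were measured, and their sum ranged from 79119 cpm in control to 137910 cpm in T3. CKM, DES, MYL1 and TNNT3 were high in every library, while the skeletal muscle actin ACTA1 had only 130 control counts and 6, 0 and 3 in T1, T2 and T3. The myosin gene MYH2 had 374 cpm in control and 61.4, 209 and 300 cpm in T1, T2 and T3. It was below 0.6 of control in T1 (0.164) and T2 (0.560). The endothelial markers PECAM1 and VWF summed to 246 cpm in control and to 137, 598 and 290 cpm in T1, T2 and T3. The measured leukocyte markers, PTPRC and CD68, summed to at most 4.76 cpm.

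A mean of at least 5 cpm over the 4 libraries was reached by 32 members and by 6765 goat genes. The other 9 members (USP3, USP20, USP27X, USP31, USP37, USP42, USP43, USP45 and USP49) had 2 to 37 control counts and are not counted below. The 32 members ranged from 7.89 to 236 cpm in control, with a median of 49.3 cpm. Their medians were 25.4 cpm in T1, 14.9 cpm in T2 and 21.7 cpm in T3. In 25 members the control library was above all 3 treated libraries, as it was in 42.2% of all goat genes tested.

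**Figure D1:**
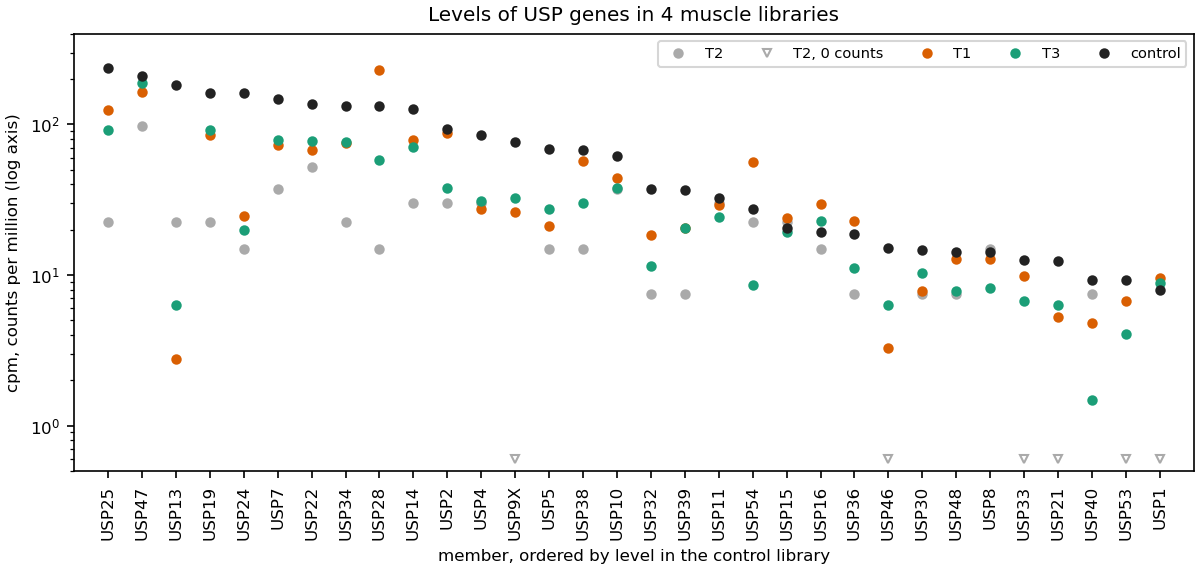
Level of each of the 32 USP members in each library, in cpm on a log axis, ordered by the control library. Points are single libraries, and open triangles at the bottom mark 0 counts in T2. USP13 lies near the top in control (181 cpm) and far below its neighbours in T1 and T3 (2.76 and 6.30 cpm).

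USP13, a deubiquitinase with a zinc finger known to stabilise MITF and Beclin-1, had 1104 counts in control, 11 in T1, 3 in T2 and 17 in T3. Per length it was the highest member in control, at 66.6 cpm per kilobase, ahead of USP19 at 35.6, USP22 at 33.2 and USP7 at 32.0 cpm per kilobase. Its ratio to the control library was 0.0152 (95% interval 0.00756 to 0.0273) in T1 and 0.0347 (0.0202 to 0.0559) in T3. In T2 it was 0.124 (0.0255 to 0.362), on 3 counts. The intervals are exact and cover counting error only, and with 1 control library no ratio has a replicate check. With 3 counts as the floor, no goat gene was lower in T1, 2 were lower in T3 and 53 in T2.

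The family was asked whether it shares this. In T1, 16 of 32 members (50.0%) were below 0.6 of control, the study's lower limit, where 33.7% of all goat genes tested were. In T3 there were 25 (78.1%), against 34.8% of all genes. In T2 there were 15 (46.9%), against 21%. Among genes high enough in control to be called there, it was 15 of 16 members, USP13 included, against 53.7% of all such genes. These genes were chosen by the control library alone, which takes in genes that are high only there, so this is a description. No member was above 3, the upper limit, in any treated library, where 5.03%, 8.91% and 2.47% of all genes were. Without USP13 the counts were 15, 14 and 24 of 31 in T1, T2 and T3. The median ratio of the members was 0.592, 0.228 and 0.534 in the 3 treated libraries, beside 0.792, 0.754 and 0.752 over all goat genes.

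The size of the difference from all genes depended on the genes compared. A longest unigene over 2000 bases was held by 31 of the 32 members, against 3694 of the 6765 goat genes. Among these 3694 goat genes, 42.9% were below 0.6 in T1, beside 15 of 31 such members (48.4%). In T3 it was 47% of such genes, beside 24 of 31 members (77.4%). With ratios scaled to the median goat gene, 7 of 32 members (21.9%) were below 0.6 in T1, where 22.8% of all genes were, and 14 (43.8%) in T3, where 19% were. The share of members below the limit was thus near that of the other genes in T1 and above it in T3 under both comparisons.

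**Figure D2:**
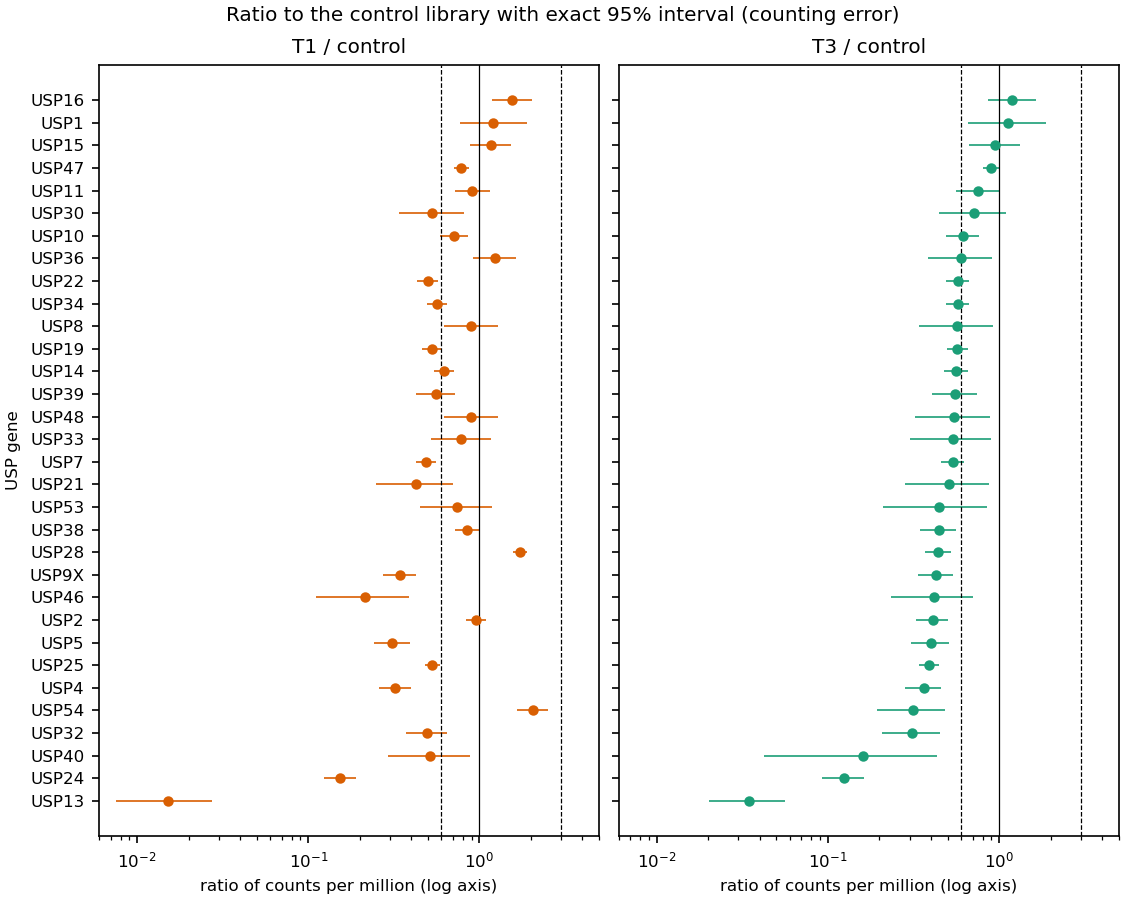
Ratio of each USP member to control in T1 and T3 on a log axis, ordered by T3. Points are ratios, bars exact 95% intervals for counting error, the solid line is 1 and the dashed lines the limits 0.6 and 3. USP13 and USP24 lie lowest in T1, and USP28 (1.73) and USP54 (2.05) lie highest there but below 0.6 in T3.

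In T1 and T3 USP13 was at 0.276 and 0.265 with a second, nucleotide-matched unigene added, as described below. By the unigenes paired with goat proteins, no other tested member was as low as USP13 there. The next lowest was USP24, a large deubiquitinase, with 982 control counts and 99, 2 and 54 in T1, T2 and T3. Its ratios were 0.154 (0.124 to 0.189), 0.0926 (0.0112 to 0.336) and 0.124 (0.0925 to 0.163), so its interval lay above that of USP13 in T1 and T3 and overlapped it in T2. In T2, where each had 2 or 3 counts, USP25 at 0.0948 (0.0195 to 0.278) and USP28 at 0.112 (0.0136 to 0.408) were also near USP13. Ranked by the least lowered of the 3 treated libraries, with 3 counts as the floor, USP13 was at place 1 and USP24 at place 5 of all goat genes. USP4 followed at place 101. The interval of the ratio lay wholly below 0.6 for 10 members in T1 and for 12 in T3, where this held for 20% and 16% of all genes.

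**Figure D3:**
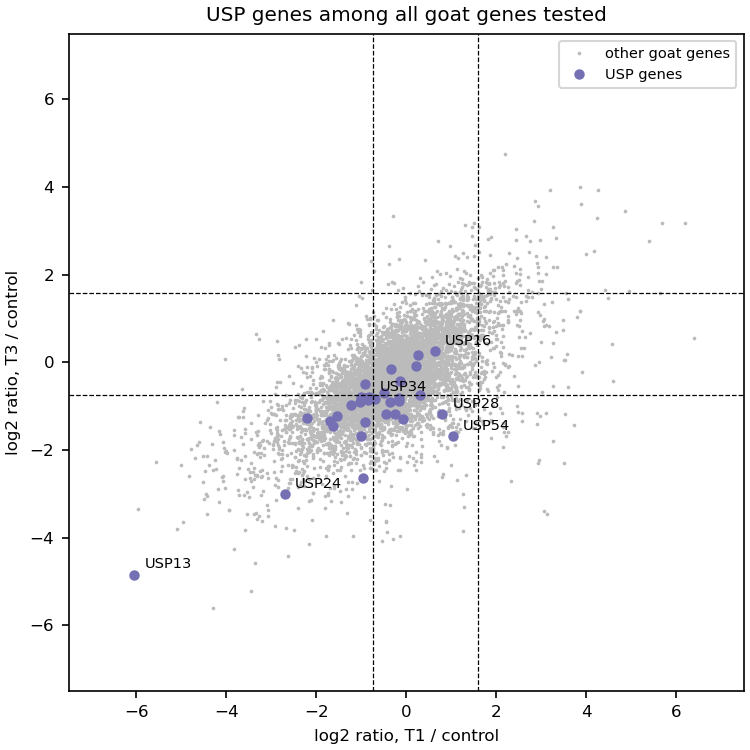
Log2 ratio to control in T1 (horizontal) and T3 (vertical) for all goat genes tested, with a floor of 3 counts. Grey points are other genes, violet points the USP members, and dashed lines the limits 0.6 and 3. USP13 stands at the lower left edge of all genes, USP24 within its margin, and the other members lie within the main cloud. Both axes share the control library.

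In all 3 treated libraries 10 of 32 members (31.2%) were below 0.6, against 8.97% of all genes and 14.2% of those with a unigene over 2000 bases. In T1 and T3 together it was 15 members (46.9%), against 21.7% and 29.6%. Without USP13, by which the family was chosen, the counts were 9 of 31 (29.0%) and 14 of 31 (45.2%). The 10 were USP4, USP5, USP7, USP9X, USP13, USP19, USP22, USP24, USP25 and USP34. The count fell to 5 of 32 (15.6%, against 3.36% of all genes) with ratios scaled to the median goat gene, where USP7, USP19, USP22, USP25 and USP34 were no longer below the limit in all 3. It was also 5 with limits of 0.5 and 2 (4.92% of all genes), and 3 of 20 (15%, against 10.4%) with only unigenes that hold over 500 bases after the open reading frame. No member was above 3 in all, as 0.532% of all genes were. All comparisons share the 1 control library.

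USP5 (isopeptidase T), the relative of USP13 that takes apart free ubiquitin chains, had 420 control counts and 85, 2 and 74 in T1, T2 and T3. Its ratios of 0.309 (0.242 to 0.390) and 0.398 (0.306 to 0.510) in T1 and T3 lay far above those of the paired USP13 unigene. The intervals did not overlap. The nucleotide-matched unigenes described below were at 0.393 and 0.360 for USP13 and at 2.41 and 2.07 for USP5, the latter on 24 control counts. USP4, known from TGF-beta and Wnt signalling, had 517 counts and then 109, 4 and 83, with ratios of 0.322 and 0.362 in T1 and T3. Both were low in every treated library, by a similar amount in T1 and T3.

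The large members USP9X, USP24 and USP34 were below 0.6 in every treated library, USP34 by a small margin. USP9X, which acts on SMAD4 and MCL1 among others, had 463 control counts and 104, 0 and 88 in T1, T2 and T3. It was at 0.343 (0.274 to 0.425) and 0.429 (0.337 to 0.540) of control in T1 and T3, and at least 3.39-fold lower in T2, taken against 3 counts. USP34, which acts on axin in Wnt signalling, had 811 counts and then 299, 3 and 206, with ratios of 0.562 (0.491 to 0.643) and 0.573 (0.489 to 0.669). The USP34 call ended in T1 and T3 with its highest-count unigene alone (0.634 and 0.645) and with ratios scaled to the median goat gene (0.710 and 0.762). USP24, above, was the lowest of these.

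USP7 (HAUSP), which stabilises MDM2 and p53, had 904 control counts and 290, 5 and 214 in the treated libraries. USP22, the deubiquitinase of the SAGA complex that acts on histone H2B, had 826 counts and then 270, 7 and 210. Their ratios were 0.489 and 0.498 in T1 and 0.534 and 0.574 in T3, near the limit.

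The members with a known role in muscle were USP2, USP14, USP19, USP25 and USP28. All 5 were below 0.6 in T3 (34.8% of all genes) and in T2, where 53.7% of the genes that could be called were. For USP2 this held for the unigene paired with the goat protein. Its nucleotide-matched unigene, described below, had 205 control counts and was at 1.17 (0.914 to 1.48) in T3. In T2 that unigene was at 2.00 (0.900 to 3.87), on 9 counts. In T1 it was USP19 and USP25, 2 of 5, where 33.7% of all genes were. USP19, which has an endoplasmic reticulum membrane form and is linked to atrophy, had 986 control counts and 340, 3 and 249 in T1, T2 and T3, with ratios of 0.526 (0.464 to 0.595) and 0.570 (0.494 to 0.655) in T1 and T3. USP25, which has a muscle-specific form, was the highest member by cpm in control with 1439 counts, and had 501, 3 and 248 in the treated libraries. Its ratios were 0.531 (0.479 to 0.588) and 0.389 (0.338 to 0.445). USP14, which sits on the proteasome and trims its substrates, had 771 counts and then 314, 4 and 191. At 0.621 (0.543 to 0.709) it was just outside the limit in T1, where USP34 was just inside, and at 0.559 (0.475 to 0.656) in T3.

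USP28 and USP2 differed between the treated libraries, a comparison that does not use the control library. USP28, which stabilises MYC, had 809 control counts and 918, 2 and 157 in T1, T2 and T3. It was at 1.73 (1.57 to 1.90) of control in T1 and at 0.438 (0.367 to 0.520) in T3, so T1 was 3.95 times (3.33 to 4.71) T3. Its relative USP25 was 1.37 times (1.17 to 1.60). USP28 was the highest member per length in T1, at 50.7 cpm per kilobase, with USP2 next at 26.2. USP2, which acts on cyclin D1 and on clock proteins, had 563 counts and then 351, 4 and 102, and was 2.33 times (1.86 to 2.93) as high in T1 as in T3. USP54, which lacks full catalytic residues, had 166 counts and then 223, 3 and 23, and differed by 6.55 times (4.26 to 10.6), the most of any member.

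T1 was above T3, with an interval that did not hold 1, in 8 of 32 members (USP2, USP25, USP28, USP32, USP36, USP38, USP40 and USP54), close to the 25.6% of all genes. It was below in USP13 and USP47, against 23.2%. USP47, a deubiquitinase of DNA polymerase beta, was below 0.6 only in T2, at 0.463 (0.246 to 0.794), with 1278 control counts and 658, 13 and 507 in T1, T2 and T3. Its ratios were 0.785 (0.714 to 0.863) and 0.895 (0.806 to 0.993) in T1 and T3. It was the highest member per length in T3, at 26.0 cpm per kilobase, where USP19 at 20.3 cpm per kilobase was next. By the deposited TPM this order was the other way round, with USP19 at 18.7 and USP47 at 13.8 TPM. In T2 it also led, at 13.4 cpm per kilobase, but on 13 counts its order against the others is not resolved.

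The zinc finger UBP group, to which USP13 belongs, held members on both sides of the limit. Of its 11 measured members 6 were tested, and 4, 3 and 5 were below 0.6 in T1, T2 and T3, where 33.7%, 21% and 34.8% of all genes were. Without USP13 it was 3, 2 and 4 of 5. In T2 only USP5, USP13 and USP22 were above the 37.4 cpm in control that a call needed. USP16, which acts on histone H2A, had 117 control counts and 119, 2 and 62 in the treated libraries, and was at 1.55 (1.19 to 2.02) and 1.196 (0.864 to 1.64) of control in T1 and T3. USP39, a splicing factor without catalytic activity, had 224 counts and then 82, 1 and 55, with ratios of 0.558 and 0.554. USP33, known to deubiquitinate the beta-2 adrenergic receptor together with USP20, had 76 counts and then 39, 0 and 18, with ratios of 0.783 (0.518 to 1.17) and 0.534 (0.301 to 0.902). Of its control counts, 44 were on c9743_g1, which matched the goat protein with an identity of only 67%. Its unigene c37537_g1, with an identity of 100% and 24 control counts, was at 1.97 (1.12 to 3.51) in T1 and 1.13 (0.514 to 2.35) in T3. The call of USP33 in T3 thus depended on the pairing of c9743_g1. USP20 was too low to be tested, with 37 control counts and 1, 0 and 3 in the treated libraries. So were the others in the group. USP49 had 21 and then 1, 0 and 2, USP3 had 27 and then 14, 0 and 5, USP45 had 5 and then 2, 0 and 0, and USP27X had 2 and then 1, 0 and 2.

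Of 6 tested members with a DUSP domain, 2, 1 and 4 were below 0.6 in T1, T2 and T3. Of 4 tested histone deubiquitinases it was 3, 2 and 3, and of the 3 members without full catalytic residues 1, 0 and 3. Beside the 33.7%, 21% and 34.8% of all genes, the DUSP members were at 33.3%, 16.7% and 66.7%. The histone deubiquitinases were at 75%, 50% and 75%, and the members without full catalytic residues at 33.3%, 0% and 100%. The groups hold 3 to 6 tested members each. In T2 a call needed over 37.4 cpm in control. Of the DUSP members only USP4 (84.9 cpm) was above that, and it was called. The members without full catalytic residues all lay under it, with USP39 at 36.8 cpm, USP54 at 27.3 and USP53 at 9.20. Their 16.7% and 0% in T2 therefore cannot be set beside the 21% of all genes. The DUSP count in T3 includes USP33, whose call depended on the pairing given above.

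The remaining members differed among themselves. USP1 and USP15 were close to the control library in both deep treated libraries, with ratios of 1.21 and 1.17 in T1 and 1.13 and 0.946 in T3, and every interval held 1. USP8, USP38, USP36, USP48 and USP53 were below 0.6 in T3 and between 0.735 and 1.23 in T1. USP21, USP32, USP40 and USP46 were below 0.6 in both, USP30 only in T1, and USP10 and USP11 in neither. The members nearest the limit in T3 were USP36 at 0.599 and USP10 at 0.614, and in T2, among members high enough in control to be called, USP47 at 0.463 and USP10 at 0.606.

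For USP13 there was a further readout that the family rule did not use. The assembly held, in the same group as the USP13 unigene c13684_g2, a unigene of 4690 bases (c13684_g6) with no goat protein match whose best nucleotide match is a USP13 transcript of another mammal. The protein-matched unigene was 2722 bases long, its open reading frame ran from base 82 to 2670, and only 52 bases followed it. The nucleotide-matched unigene had 2642 control counts and 680, 3 and 422 in T1, T2 and T3. It was therefore at 0.393 (0.360 to 0.427) and 0.360 (0.324 to 0.400) of control in T1 and T3, where the protein-matched unigene was at 0.0152 and 0.0347. With both unigenes summed, USP13 had 3746 counts and then 691, 6 and 439, and its ratios were 0.276 (0.254 to 0.299), 0.0726 (0.0266 to 0.158) and 0.265 (0.239 to 0.292). On that sum 325 of 7466 goat genes were lower in T1, 15 in T2 and 263 in T3. USP13 was thus below 0.6 by either unigene, and in T1 and T3 its place at the lowest end of all genes rested on the unigene that holds the open reading frame. In T2 the order was the other way round, with the nucleotide-matched unigene at 0.0516 (0.0106 to 0.151) and the protein-matched one at 0.124, on 3 counts each.

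A gap between the unigenes of a gene was common in these libraries. In 9 members both the protein-matched and the nucleotide-matched unigenes had at least 20 control counts, and the protein-matched part had the lower ratio in all 9 in T1 and in 8 in T3. The same held for 90.1% and 85.3% of the 1089 goat genes with both parts. Over these genes the median ratio was 0.340 for the protein-matched and 1.28 for the nucleotide-matched part in T1, and 0.398 and 0.902 in T3. The gap was wide in USP13, at 0.0387 in T1 and 0.0964 in T3 for the protein-matched ratio over the other, where 42 and 33 genes had a wider one, those with 0 protein-matched counts included. In USP20 it was still wider in T1, at 0.0335, but on 1 protein-matched count. USP46 had nearly equal ratios in T3, 0.417 and 0.403. In USP24 the nucleotide-matched unigene had 146 control counts and 192, 0 and 44 in the treated libraries, so it was at 2.01 (1.61 to 2.50) in T1 where the protein-matched one was at 0.154. In USP5 it was at 2.41 (1.41 to 4.21) on 24 and 38 counts, and in USP2 at 3.36 (2.84 to 3.98) on 205 and 451 counts. USP13 was the only one of the 9 whose nucleotide-matched part had an interval wholly below 0.6 in T1.

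**Figure D4:**
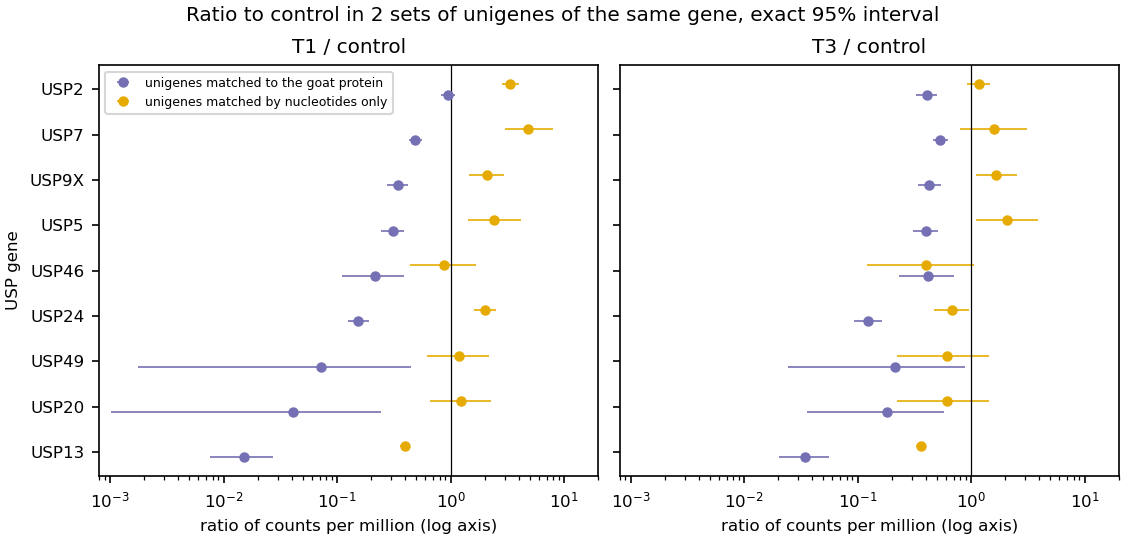
Ratio to the control library, on a log axis, of protein-matched unigenes (violet) and of nucleotide-matched unigenes (yellow) of the 9 members with at least 20 control counts in each. Points are ratios in T1 (left) and T3 (right), and bars exact 95% intervals for counting error. The violet point is to the left in every panel and member except USP46 in T3, and in USP13 both points are below 1.

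Unigenes of 1 member also differed in the sequence they hold after the open reading frame. This was looked at in the 30 USP unigenes with at least 50 control counts. They were chosen by the control library alone, which takes in unigenes that are high only there, so their ratios are a description. They share libraries, and some share a gene. Of these 30, 3 had at most 100 bases after the frame, 1 each of USP13, USP32 and USP34, and their ratios were 0.0152, 0.0444 and 0.0162 in T1 and 0.0347, 0.0438 and 0.0240 in T3. USP34 had 717 control counts and 298 and 205 in T1 and T3 on c12791_g1, which has 2709 bases after the frame, and 94, 1 and 1 on c16767_g1, which has 1. USP32 had 112, 70 and 27 on c11565_g2 with 2051 such bases and 103, 3 and 2 on c35761_g1 with 2. Over all unigenes with at least 50 control counts and at most 100 such bases the median ratio was 0.547 and 0.6003, so most were not as low as these 3. The part that the length and ends of the unigenes had in these ratios was not tested.

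**Figure D5:**
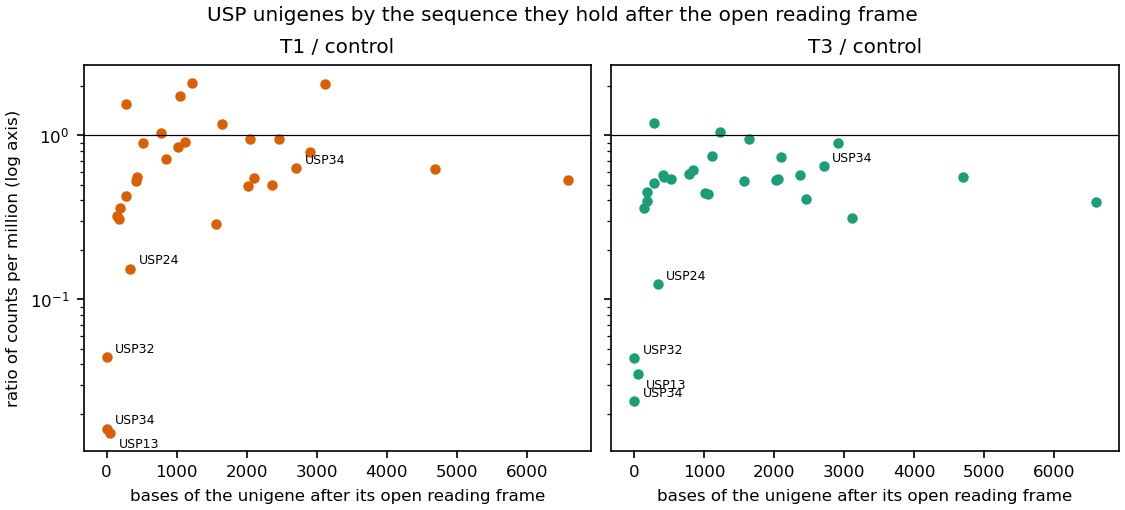
Ratio to the control library (log axis) against the number of bases after the open reading frame, for the 30 USP unigenes with at least 50 control counts, in T1 (left) and T3 (right). Each point is a unigene. The labelled unigenes of USP13, USP32 and USP34 with at most 100 such bases lie lowest, and the other unigene of USP34 lies near 0.6.

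Using only unigenes with over 500 bases after the frame, 20 members were tested in place of 32, of which 5 (25%) were below 0.6 in T1, 9 (45%) in T2 and 12 (60%) in T3. The same rule gave 34%, 26.1% and 37.5% of all genes. The share of members was thus lower than with all unigenes in T1 and T3 and about the same in T2. USP13 has no such protein-matched unigene.

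The 3 treated libraries were compared with the control library by edgeR's quasi-likelihood test over all 6765 genes. In it the lone control library is assumed to vary like the treated ones. The treated libraries were taken as replicates, though they may hold different times. No goat gene had an adjusted p under 0.05, lower (0%) or higher (0%), and 688 (10.2%) had an unadjusted p under 0.05. DESeq2 called 1 gene lower and 3 higher. Of the 31 members other than USP13, 0 were called by edgeR and 0 by DESeq2, with 4 and 1 at an unadjusted p under 0.05. The lowest edgeR adjusted p of a member was 0.24 for USP24, with a log2 difference of -2.93, and it was below control in 3 of 3 treated libraries. Its edgeR adjusted p was 0.014 without T2, and over the alternatives it ranged from 0.0042 without the filter on low counts to 0.55 without T3. The median fitted log2 difference of the 31 members was -0.85 beside -0.30 over all genes. With TMM normalization it was -0.53 beside 0.0089.

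Other parts of the ubiquitin system gave a mixed picture. A list of genes with deubiquitinase-type domains and without a USP symbol had 26 tested. It took in CYLD and proteins with a JAMM-type domain such as the splicing factor PRPF8. Of the 26, 12, 9 and 12 were below 0.6 in T1, T2 and T3, and 4 in all (15.4%). The shares were 46.2%, 34.6% and 46.2%, beside 33.7%, 21% and 34.8% of all genes and 8.97% in all 3. BAP1, a nuclear deubiquitinase of histone H2A, was among these, with 904 control counts and 168, 10 and 149 in the treated libraries, together with OTUD5, OTUD7B and FAM63A. By class, 6, 5 and 6 of 9 OTU members were below 0.6, against 3, 2 and 2 of 8 genes with a JAMM-type domain, not all of them active proteases. OTUD1 had 1426 counts and then 10594, 2 and 129, so it was 11.3 times (10.7 to 12.0) control in T1 and 0.204 (0.169 to 0.245) of it in T3. Of 20 tested E2 ubiquitin-conjugating enzymes 4, 5 and 5 (20%, 25% and 25%) were below the limit, with UBE2O alone below it in all 3.

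Of 10 tested muscle ubiquitin ligases 6, 6 and 8 (60%, 60% and 80%) were below 0.6, against the same shares of all genes, and ASB2, FBXO32, FBXO40 and MUL1 were so in all 3. FBXO32 had 1537 control counts and 163, 1 and 32 in T1, T2 and T3. ASB2, the highest of these 4 in control, had 7144 and then 1583, 28 and 1766, FBXO40 had 1293 and then 402, 7 and 316, and MUL1 464 and then 84, 3 and 107. TRIM63 had 1357 counts and then 6629, 4 and 227, with ratios of 7.45 (7.03 to 7.90) and 0.377 (0.326 to 0.435) in T1 and T3. Like USP28 and USP54, TRIM63 and OTUD1 were above control in T1 and below it in T3. The ubiquitin gene UBB had 9652 counts and then 8137, 49 and 1774, at 1.29 and 0.415 of control in T1 and T3.

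Of 8 tested substrates and partners of USP13, 7 were below 0.6 in T1, 4 in T2 and 5 in T3, where 33.7%, 21% and 34.8% of all genes were. The other one in T1 was the ubiquitin ligase SIAH2, above the upper limit at 3.09 (2.31 to 4.17), and at 1.43 (0.962 to 2.11) in T3. VCP, an ATPase that draws ubiquitinated proteins out of membranes, had 4159 control counts and 1371, 19 and 767 in T1, T2 and T3. MITF, a transcription factor, had 378 counts and then 95, 3 and 66, and the ubiquitin ligase UBE4B 358 and then 77, 3 and 53. In T1 and T3 the ratios were 0.503 and 0.416 for VCP, 0.383 and 0.394 for MITF and 0.328 and 0.334 for UBE4B. All lay well above those of the protein-matched USP13 unigene, while the nucleotide-matched one was at 0.393 and 0.360, near MITF and above UBE4B.

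The pairing with goat genes limits some of these values. The main USP46 unigene matched the goat protein with an identity of 90% and is annotated as USP12 in the authors' other table, so these relatives cannot be told apart. For USP9X, 4 short unigenes with 1 to 3 control counts are annotated as USP9Y. Of the 76 control counts of USP33, 44 were on a unigene paired with an identity of only 67%. Of the 46 USP symbols in the goat assembly ARS1.2, 5 (USP12, USP26, USP35, USP44 and USP50) had no paired unigene.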

How the data were processed

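RNA-seq libraries of Longissimus dorsi muscle were made by the authors from total RNA with the NEBNext Ultra RNA kit. The labels name FastQC 0.10.1. The assembler, the counting tool and the goat annotation are not given in the sources used here. The authors deposited expected counts, which are estimates of the reads of each unigene and transcript and were whole numbers, and TPM, which was used only for an alternative order of levels. They also deposited pairings of unigenes with goat proteins and their percent identity, together with annotation and sequences. Their FPKM values were not used.

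Expected counts were summed per goat gene and scaled to the counts of named goat genes. Unigenes paired with unnamed, mitochondrially encoded proteins were left out (23.8, 42.8, 97.9 and 55.2% of paired counts in the control library and T1, T2 and T3). Total counts were 6675218 to 8533046 per library. Genes with a mean of at least 5 cpm were tested. A gene was called below 0.6 or above 3 with 3 counts as the floor. Intervals are exact Clopper-Pearson 95% intervals for counting error only, and reads without molecular identifiers are not independent molecules. edgeR 4.0.16 (R 4.3.3) was run with Benjamini-Hochberg adjustment over all genes tested, DESeq2 1.42.0 was an alternative. Both calculations were tested on simulated data with large planted changes. For the calls these were 5 times lower or 8 times higher, and 100 of 100 genes each were recovered in T1 and in T3. Those for edgeR were larger still. Differences as small as those of most members were not tested in this way.

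The members, gene lists and tests were chosen with earlier results of these data known. Named with values in every library were USP13, USP5, members past a limit the same way in all treated libraries, the 5 highest per length, those with a role in muscle and the zinc finger group, and of other lists those past a limit in all treated libraries (at most 4) with UBB, TRIM63 and FBXO32. Another gene that the rule named is not reported here. USP54, USP1, USP15, OTUD1 and others named without full values were named after their values were seen, as were the comparisons by unigene, by nucleotide match and by sequence after the open reading frame. A nucleotide-matched unigene is one without a goat protein match whose nucleotide match names the gene. Members were also matched by symbol to the RefSeq genes of ARS1.2, of which no coordinates were used. Alternatives were other scalings, minimum levels, limits, a pseudocount, identity and unigene choices, the transcript table, and leaving out each treated library.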

Additional observations from a re-analysis of the deposited data

How the results depend on the processing

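No paired analysis was possible because there was only 1 control library. Scaling to all counts gave 24 members below 0.6 in T2 and 16 in all 3, with median ratios of 0.00623 and 0.308 in T2 and T3. Scaling to all goat-paired counts, unnamed proteins included, gave 26, 16, 0.00798 and 0.323. Under these 2 scalings 99.6% and 99.4% of all genes were below 0.6 in T2. Median scaling gave 7, 14 and 5 members below 0.6 in T1, T3 and all 3. Limits of 0.5 and 2 gave 10, 14 and 5, and 1 member (USP54) above 2 in T1. A minimum of 20 cpm gave 16 members in T3 (76.2% of 21 tested), and a pseudocount of 1 cpm gave 25 in T2. With over 500 bases after the open reading frame there were 5, 9 and 12 members in T1, T2 and T3 and 3 in all, with a median ratio of 0.870 in T1. Without each treated library in turn, 10 to 15 members were below 0.6 in the libraries left, and the counts were 16 in T1, 15 in T2 and 24 to 25 in T3. Members above 3 stayed at 0.

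By edgeR, dropping the filter on low counts called 152 genes lower and 51 higher, with 1 member (USP24) lower. Leaving out each treated library called 0 to 140 genes lower, 0 to 16 higher and 0 to 1 member lower, the most lower without T2. TMM called 0 and DESeq2 1 lower and 3 higher. By deposited TPM, 3 of the 5 highest members in the control library and 2 in T2 were shared with the order by cpm per kilobase. With nucleotide-matched unigenes added, the median ratio in T2 was 0.363, and with over 500 bases after the frame 0.396, both within the spread between the medians of the treated libraries. The other alternatives moved no count or median of the members by over 1.5 times. Ratios of single members changed side of a limit mostly under median scaling, where 13 of 57 were no longer past it, and no called ratio of a named member changed direction. The causes were not tested. Depth limits T2 most, where 3 counts are 22.4 cpm, against 0.493 cpm in the control library. Scalings and the unigene choice were partly added after the data were seen.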
